A study of Mus musculus with 20 samples.

Results

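The nuclear-encoded subunits of respiratory complexes I, III and IV were followed in mouse liver through 123 probe sets of 60 genes, out of 34945 probe sets that the array's annotation gives exactly 1 gene symbol and 45101 probe sets in all. Members were chosen by symbol: names beginning with Nduf and a, b, c, s or v before a digit for complex I (73 probe sets of 35 genes), Uqcr or Cyc1 for complex III (17 probe sets of 9 genes), and Cox4 to Cox8 for complex IV (33 probe sets of 16 genes). Assembly factors named Ndufaf were left out, as were 2 probe sets of Cox6a2, and 9 probe sets whose several symbols include a matching one. All mice were male C57BL/6J, 8 weeks old, had been acclimated on a diet with 10 kcal% fat and were fasted for 16 h before the liver was taken. For 4 weeks, 10 mice (HFD) ate a diet with 45 kcal% fat, and 10 mice (MSXH) ate that diet with 0.02% of MSXH, which the series title gives as maple syrup extract high. The groups on low-fat diet and on more extract were not analysed here. Total liver RNA of each mouse was hybridised to 1 Affymetrix 3' expression array, so that each value comes from 1 animal.

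Complex I takes electrons from NADH and passes them to ubiquinone, complex III passes them from ubiquinol to cytochrome c, and complex IV passes them to oxygen. All 3 pump protons across the inner mitochondrial membrane, and the gradient drives ATP synthase. In the fasted liver this chain oxidises the NADH and reduced flavins made by fatty acid oxidation, and its subunits are known to be transcribed broadly, while a few complex IV subunits also exist as isoforms typical of muscle, lung or testis.

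The deposited values are on a log scale, taken as log2, and ran from 5.17 to 15.01 with array medians between 6.5216 and 6.5226. The spread between arrays was very small: the median SD over the 20 arrays was 1.07e-05 over all probe sets and 6.17e-06 over the members, and 121 members had an SD under 0.0001. The process that made the values so alike is not given in the sources used here, so no difference is read as a fold of RNA. Differences are given instead as standardized differences, the MSXH mean minus the HFD mean over the pooled SD within groups, and single arrays as deviations from the mean of the 20 arrays in millionths of the deposited unit. The hepatocyte markers lay far above the array medians on every array, with a mean level of 13.60 to 13.61 over the 13 measured of 14 listed. The arrays of mice MSXH 4 and MSXH 6 stood apart: the mean level of 21 skeletal muscle markers was 7.56 and 7.15 on them and at most 6.42 on the other 18. In whole liver, a lower share of one cell type and less RNA per cell cannot be told apart.

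No member passed the test between MSXH and HFD. By limma with Benjamini-Hochberg adjustment over all 34945 probe sets, 0 members and 0 probe sets in all (0%) had an adjusted p under 0.05, and the smallest adjusted p of a member was 0.323. At an unadjusted p under 0.05 there were 10 members (8.13%), where 10.7% of all probe sets tested passed. Of these 10 members, 6 had a higher mean in MSXH (6.03% of all probe sets tested) and 4 a lower one (4.69% of all). These shares are near or below those of the whole array. Without an empirical Bayes step, and in a rank sum test, 0 members passed after adjustment as well, with a smallest adjusted p among the named members of 0.182 and 0.232.

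The members leaned one way in the values as deposited. In MSXH 89 of 123 had the higher mean, 33 the lower one and 1 the same mean, so that 72.4% were higher against 53% of all probe sets tested. The median standardized difference was 0.250 over the members and 0.0429 over all probe sets. It was 0.305 for complex I, 0.192 for complex III and 0.237 for complex IV, and the higher mean was in MSXH for 56 of 73, 12 of 17 and 21 of 33 probe sets. Of the 87 members at a mean level above 10, 70 (80.5%) were higher, where 49.8% of the 1692 probe sets of the whole array at such levels were.

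The direction turned with the scaling of the arrays. With arrays centred on their medians, 2 members were higher and 121 lower, as were nearly all probe sets tested (3.07% higher), and the median of the members was -0.702 against -0.698 for all. After quantile normalization, 6 members were higher and 105 lower among the 111 that kept any spread, with 5.81% of all probe sets higher. The span of the array medians was wider than the SD of 121 members, and quantile normalization left 51 members (41.5%, against 3.2% of all probe sets) with at most 2 arrays apart from an otherwise constant value. Without MSXH 4 and MSXH 6, 86 members were higher and 37 lower on the deposited values, with a median of 0.184, and 7 and 2 had an unadjusted p under 0.05 (9.99% of all probe sets, both directions together). Without both and with quantile normalization, 43 members were higher and 39 lower among the 83 that kept any spread. That is 51.8% higher, against 51.7% of all probe sets. All differences below are of the deposited values.

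**Figure D1:**
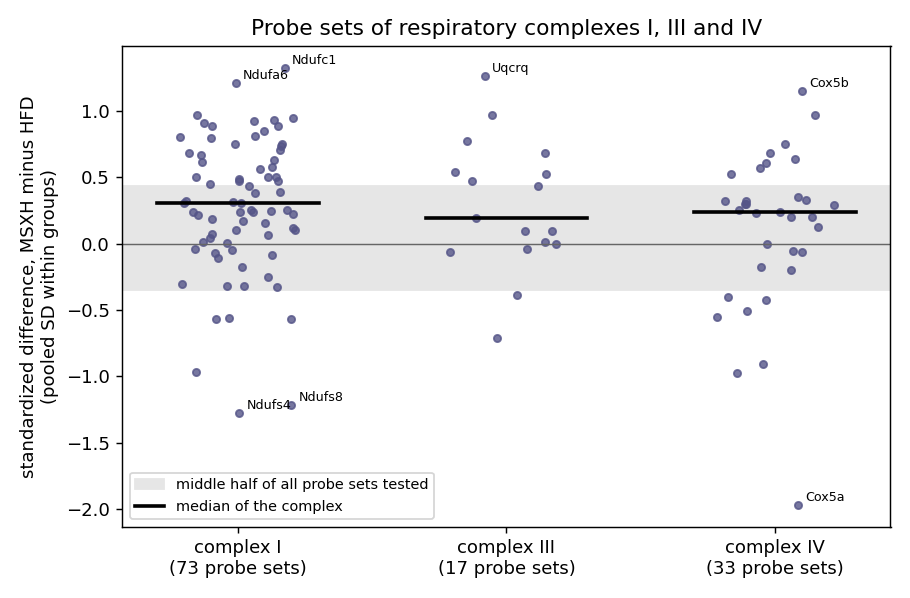
Standardized difference (MSXH minus HFD, in pooled SDs within groups, 10 mice against 10) of each of the 123 probe sets, by complex, with the median of each complex as a black line and the range from the lower to the upper quartile of all 34945 probe sets as a grey band. Points spread on both sides of 0 in every complex, with medians of 0.305, 0.192 and 0.237, and the lowest point is a Cox5a probe set at -1.97.

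A few mice held the highest levels. For each array, the members were standardized over the 20 arrays and averaged by complex, which gives a level in SD units. The complex I level was -0.918, -0.0373 and 0.215 (lowest, median, highest) in HFD and -0.561, -0.0182 and 1.11 in MSXH. The group medians differed by far less than the spread, the groups overlapped, and 4 MSXH mice lay above every HFD mouse. The means were -0.135 ± 0.354 in HFD and 0.135 ± 0.556 in MSXH (SD, n = 10 each). Complex III gave -0.683, 0.00988 and 0.199 in HFD and -0.462, 0.0526 and 1.14 in MSXH, and complex IV gave -0.370, -0.0207 and 0.385 against -0.396, -0.0697 and 0.711. Mouse MSXH 3 was the highest in all 3 complexes (1.11, 1.14 and 0.711), and MSXH 4 and MSXH 7 held the next ranks in each, between 0.579 and 0.742. HFD 3 was the lowest for complex I, HFD 4 for complex III and MSXH 9 for complex IV.

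The same mice held the extremes of many single members. MSXH 3 was the highest array for 39 members (31.7%, against 8.48% of all probe sets) and HFD 3 the lowest for 23 (18.7%, against 7.0%). The share of 8.48% was itself the largest of any array. The mean level of all probe sets on MSXH 3, 0.0636 SD above 0, was also the highest of any array. That of probe sets above level 10 was 0.274, second to HFD 6 at 0.297. The mean level of the members on MSXH 3 was 1.01. Without MSXH 3 the median of complex IV fell from 0.237 to 0.102, and without HFD 3 that of complex I fell from 0.305 to 0.190. MSXH 4, one of the arrays with high muscle markers, was among the 4 highest arrays for 62 members (50.4%, against 15.5% of all probe sets), and MSXH 6, the other, for 32 (26.0%, against 23.3%). MSXH 6 was also the lowest array for 12 members. The part of muscle RNA in these levels was not tested.

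**Figure D2:**
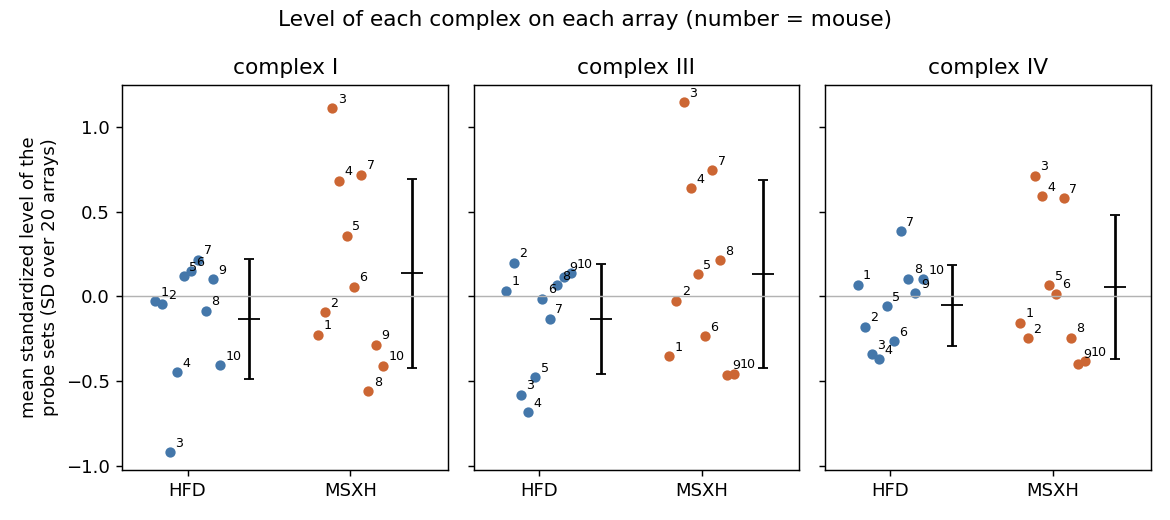
Mean standardized level of the probe sets of each complex on each array (in SDs over the 20 arrays; the number beside a point is the mouse), with the mean and SD of each group of 10 as bars. In every panel MSXH 3, 4 and 7 are the highest 3 arrays, while most of the other MSXH mice lie within the range of the HFD mice.

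The members also varied together from mouse to mouse. For this, the mean of its group was first taken off each value, so that group differences do not enter. The mean Pearson correlation of 2 probe sets over the 20 arrays was then 0.165 among the members and 0.00147 among all probe sets tested. Among those at a mean level above 10 it was 0.246 against 0.0281. It was 0.213 within complex I, 0.162 within complex III and 0.0903 within complex IV. These correlations are a description, since all probe sets share the same 20 arrays and several share a gene.

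Subunit genes of the respiratory chain are known for promoters with sites of the nuclear respiratory factor NRF1 and of ETS factors, and since members varied together, their promoters were searched. RefSeq windows of GRCm38.p6 were found for 48 of the 60 genes (50 windows), and the 250 bases before each start were read on both strands. The NRF1 letters, GCGCA, any base and GCGC in a row, stood in windows of 5 of the 48 genes (10.4%), against 4.23% of the 27025 genes in the table. Both windows of Ndufa5 hold the same stretch, counted once. The ETS letters CCGGAAG stood in 14.6% of the genes against 7.83%, the TATA letters TATAAA in 10.4% against 14.3%, and the E-box letters CAGCTG, known from muscle promoters, in 10.4% against 14.7%. Matches of different motifs may overlap. The member windows had a median GC content of 56.2%, against 52.4% for all, and both the NRF1 and ETS letters are rich in G and C. A match is a description of letters and not a bound site.

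The stretches around the NRF1 letters (in capitals, 5′ to 3′ on the gene's strand, which is the minus strand in each case) are shown for the 5 genes that hold them, and that of the E-box letters for Cox8b, a muscle-type isoform described below. In Ndufa8 the letters stand on the opposite strand, so that its capitals are their reverse complement.
Cox6a1, chr5:115349051-115349135: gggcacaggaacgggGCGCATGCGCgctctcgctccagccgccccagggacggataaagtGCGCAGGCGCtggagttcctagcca
Ndufa5, chr6:24527692-24527731: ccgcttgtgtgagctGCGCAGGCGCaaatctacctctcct
Ndufa8, chr2:36049344-36049383: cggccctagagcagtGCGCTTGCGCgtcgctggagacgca
Ndufb4, chr16:37654369-37654574: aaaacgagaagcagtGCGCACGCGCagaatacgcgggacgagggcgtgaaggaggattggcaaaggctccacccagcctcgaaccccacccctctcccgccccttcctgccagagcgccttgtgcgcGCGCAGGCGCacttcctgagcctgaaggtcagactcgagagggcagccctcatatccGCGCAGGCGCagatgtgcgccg
Ndufs5, chr4:123718260-123718299: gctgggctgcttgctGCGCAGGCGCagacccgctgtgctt
Cox8b, chr7:140900447-140900480: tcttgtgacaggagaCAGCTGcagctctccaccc

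None of the genes with NRF1 letters had a member at an unadjusted p under 0.05, where 10.7% of all probe sets tested passed. Ndufb4 has the most matches, 3, and its only member probe set had a standardized difference of 0.118 at a mean level of 6.15, below every array median. Cox6a1, with 2 matches, gave 0 and 0.324 for its probe sets 1417417_a_at and 1417418_s_at. Ndufa5 gave 0.470 and 0.309, Ndufa8 0.385 and Ndufs5 -0.0892.

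The nuclear-encoded core subunits of complex I form its matrix arm, where the flavin and the iron-sulphur clusters lie. They were measured by 16 probe sets of Ndufs1, Ndufs3, Ndufs7, Ndufs8, Ndufv1 and Ndufv2. This grouping was chosen after its values were seen. The mean was higher in MSXH for 15 of the 16 (53% of all probe sets tested), with a median standardized difference of 0.386 (0.0429 over all). At an unadjusted p under 0.05 there were 2 (12.5%, against 10.7% of all), 1 in each direction, both in Ndufs8. Ndufs1, the largest subunit, gave 0.806 (unadjusted p = 0.083), Ndufv1, which binds NADH, 0.449, 0.945 and 0.322, and Ndufv2 0.737, 0.501 and 0.250. The other 57 probe sets counted under complex I by name, of 29 genes, were higher for 41 and lower for 16, with a median of 0.239. They include Ndufa4 and Ndufa4l2, described below.

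Ndufc1, an accessory subunit of the membrane arm, had the smallest p of all members. Its probe set 1416285_at deviated by -17.3, -7.8 and 1.11 millionths (lowest, median, highest) in HFD and by -14.0, 1.19 and 33.8 in MSXH. Of the MSXH mice 5 lay above the highest HFD mouse, MSXH 3, 4 and 7 the farthest, and 1, MSXH 10, lay near the lowest. The means were -7.64 ± 4.82 and 7.64 ± 15.6 millionths (SD, n = 10), a standardized difference of 1.32 (95% interval 0.332 to 2.28), with the MSXH mouse higher in 87 of 100 pairs and an adjusted p by limma of 0.323 (0.225 to 0.820 over 34 alternatives). The second probe set of Ndufc1, 1448284_a_at, gave 0.305.

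Ndufa6, another accessory subunit, showed a like order. Probe set 1448427_at deviated by -16.1, -6.03 and 6.65 millionths in HFD and by -8.09, 2.08 and 19.9 in MSXH, with MSXH 7, 3 and 8 above every HFD mouse. The standardized difference was 1.21 (0.235 to 2.16), with 80 of 100 pairs higher and an adjusted p by limma of 0.352 (0.215 to 0.714 over 36 alternatives).

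Ndufs4 and Ndufs8 gave probe sets on both sides. Ndufs4 is an accessory subunit of the matrix arm whose loss is known to cause complex I deficiency. Its probe set 1438166_x_at deviated by -25.4, 19.0 and 45.3 millionths in HFD and by -90.8, -13.7 and 18.5 in MSXH, where MSXH 6 and MSXH 8 lay below every HFD mouse. The standardized difference was -1.28 (-2.23 to -0.292), with 18 pairs higher and an adjusted p by limma of 0.325 (0.210 to 0.778 over 35 alternatives). The other 3 probe sets of Ndufs4 gave 0.701, 0.0986 and 0.610, so that the mean of the gene's probe sets lay at 0.401. An ending _x_at marks probes that can also match other sequences.

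Ndufs8 holds iron-sulphur clusters near the ubiquinone site. Its probe set 1434212_at deviated by -25.6, 14.7 and 22.8 millionths in HFD and by -35.5, -6.93 and 8.44 in MSXH. There 7 of the HFD mice lay above every MSXH mouse, while HFD 4 lay among the lowest. The standardized difference was -1.22 (-2.16 to -0.240), with an adjusted p by limma of 0.347 (0.199 to 0.814 over 35 alternatives), while probe set 1423907_a_at gave 0.967 (0.0240 to 1.89) with an adjusted p of 0.444. The other 4 probe sets gave 0.632, 0.240, 0.248 and 0.250.

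The complex I probe sets of largest spread were Ndufs4 1418117_at, which ran from -121 to 78.8 millionths in HFD and from -99.8 to 181 in MSXH (0.701), and Ndufb8 1458404_at, from -155 to 49.5 and from -86.5 to 190 (0.908). In both MSXH 7 was the highest array, and the groups overlapped. The Ndufb subunits, all of the membrane arm, gave a median of 0.434 over 21 probe sets. Of these, 0 had an unadjusted p under 0.05, against 10.7% of all probe sets tested.

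In complex III, 2 of 17 probe sets (11.8%) had an unadjusted p under 0.05, against 10.7% of all probe sets tested. Both were higher in MSXH, as were 6.03% of all at that p. Uqcrq, a small subunit bound to cytochrome b, led with probe set 1430326_s_at, which deviated by -9.75, -2.11 and 2.26 millionths in HFD and by -2.23, 1.86 and 8.68 in MSXH. MSXH 3 and MSXH 4 were the highest, 5 MSXH mice lay above every HFD mouse and HFD 9 was the lowest. The standardized difference was 1.26 (0.281 to 2.22), with 83 pairs higher and an adjusted p by limma of 0.337 (0.210 to 0.996 over 34 alternatives). The other 3 probe sets of Uqcrq, at mean levels of 6.56, 7.10 and 6.57, gave -0.000202, 0.191 and -0.387.

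Uqcrc2, a core protein of complex III on the matrix side, gave 0.966 (0.0232 to 1.88) for probe set 1428631_a_at, with an adjusted p by limma of 0.459. It ran from -13.8 to 7.90 millionths in HFD and from -6.3 to 14.1 in MSXH, so that the groups overlapped over most of their range, and its second probe set gave 0.0114. Uqcrh, the hinge protein that helps bind cytochrome c1, gave 0.772 and 0.527, and Uqcr10 gave 0.679 for probe set 1434340_at. In Uqcrh 1453229_s_at and Uqcr10 1434340_at MSXH 7 was the highest array, at 87.8 and 126 millionths, where the highest HFD mouse was at 12.7 and 44.9.

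The subunits that carry the electrons were within the spread: Uqcrfs1, the Rieske iron-sulphur protein, gave 0.474 and Cyc1, cytochrome c1, -0.0389. Uqcrb, which binds ubiquinone, was the member of complex III with both probe sets lower in MSXH, at -0.714 (-1.61 to 0.202, unadjusted p = 0.122) and -0.0642.

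Over all probe sets tested, 6.03% were higher and 4.69% lower at an unadjusted p under 0.05. In complex IV, 1 of 33 probe sets (3.03%) was higher and 1 (3.03%) lower at that p. Cox5b, a matrix-side subunit that holds zinc, was the higher one in probe set 1448514_at, which deviated by -7.77, -1.25 and 2.19 millionths in HFD and by -5.17, 3.00 and 4.94 in MSXH. All MSXH mice but MSXH 6 lay above the HFD median, and 6 lay above the highest HFD mouse. The standardized difference was 1.15 (0.185 to 2.09), with an adjusted p by limma of 0.368 (0.210 to 0.842 over 33 alternatives), but the mean level of this probe set, 5.80, was below every array median. The other 5 probe sets of Cox5b gave 0.322, 0.298, -0.428, 0.250 and 0.570.

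Cox5a, a subunit on the matrix side of complex IV, held the largest standardized difference of any member. Probe set 1439267_x_at, chosen after its values were seen, deviated by -0.517, 1.01 and 2.11 millionths in HFD and by -2.34, -0.877 and 0.253 in MSXH. Of the MSXH mice 6 lay below every HFD mouse, and the 4 others lay among the lower HFD mice. The standardized difference was -1.97 (-3.03 to -0.864), and the MSXH mouse was higher in 9 of 100 pairs. The limma p was 0.170 (adjusted 0.631) with a trend of variance on level, 0.0125 (adjusted 0.338) without that trend, and 0.000349 (adjusted 0.182) without an empirical Bayes step. The adjusted p ran from 0.182 to 0.984 over 35 alternatives, and the difference turned to 0.0117 after quantile normalization. The other probe sets of Cox5a went both ways, with -0.906 (-1.82 to 0.0301) for 1415933_a_at and 0.967 (0.0242 to 1.89) for 1448153_at.

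**Figure D3:**
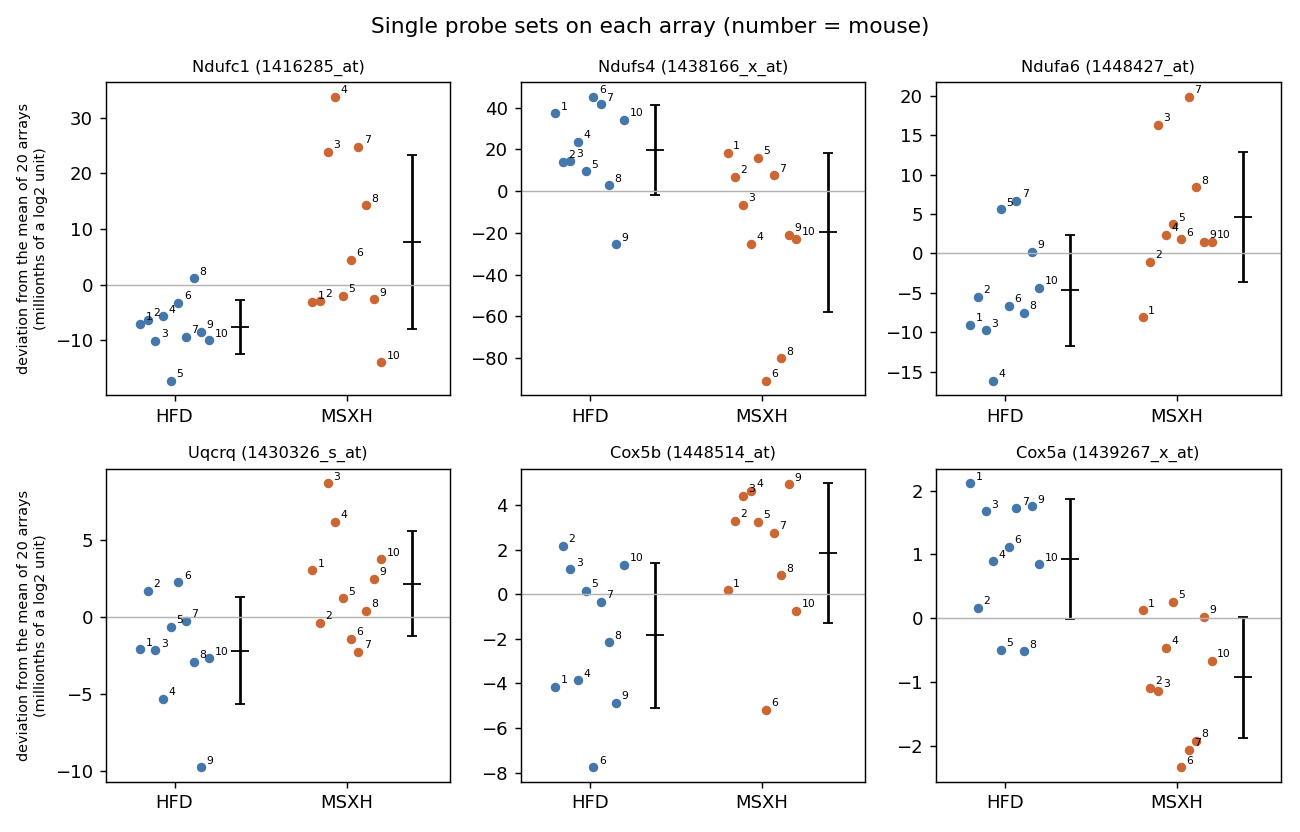
Deviation of 6 probe sets from their mean over 20 arrays (millionths of a log2 unit), for each HFD and MSXH mouse (the number beside a point), with the mean and SD of each group of 10 as bars. The groups overlap in every panel; the standardized differences run from -1.97 in Cox5a to 1.32 in Ndufc1.

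The muscle-type isoforms Cox7a1 and Cox8b were the only members with an SD above 0.001. They replace Cox7a2 and Cox8a in heart and skeletal muscle. Cox7a1 (1418709_at) had levels of 6.049, 6.057 and 6.061 in HFD and of 6.050, 6.070 and 6.319 in MSXH. MSXH 4 was at 6.319 and MSXH 6 at 6.160, and the other 18 arrays lay between 6.049 and 6.085. Cox8b (1449218_at) had levels of 6.279, 6.287 and 6.298 in HFD and of 6.268, 6.291 and 6.771 in MSXH, with MSXH 4 at 6.771 and MSXH 6 at 6.490. Both arrays were also the highest 2 for 18 of the 21 skeletal muscle markers, for 2 of 10 heart muscle markers, for 3 of 8 white adipocyte and 1 of 6 brown adipocyte markers, and for 2 of 5 cholangiocyte and 1 of 10 stellate cell markers. The white adipocyte list had mean levels of 7.479 and 7.460 on MSXH 4 and MSXH 6 and of 7.417 to 7.453 on the others, and the heart list 6.197 and 6.169 against 6.149 to 6.152. For the hepatocyte, macrophage, lymphocyte, neutrophil, endothelial and red cell lists the count was 0. The part of these cell types in the levels of Cox7a1 and Cox8b was not tested. The mean levels of both genes were below every array median, and 3 members (2.44%, against 1.46% of all probe sets) had these mice as the highest 2, the third being Ndufv1 1456015_x_at.

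Without MSXH 4 and MSXH 6, both genes went different ways. Cox8b had a standardized difference of 0.603 with them and -0.0966 without them (unadjusted p = 0.185 and 0.837). Cox7a1 had 0.753 with them and 1.04 without them (unadjusted p = 0.102 and 0.0381, adjusted by limma 0.562 and 0.475), with means of 6.056 ± 0.00518 in HFD (SD, n = 10) and 6.065 ± 0.0125 in the 8 other MSXH mice. Of the 10 MSXH mice 7 lay above the highest HFD mouse in Cox7a1, MSXH 7 the highest after the pair and MSXH 3 next. The skeletal muscle markers were at 6.37 on MSXH 7 and on MSXH 3, 6.38 on MSXH 5 and 6.39 on MSXH 8, within the range of the HFD mice. On MSXH 10, which was also above every HFD mouse in Cox7a1, they were at 6.411, where the highest HFD mouse was at 6.406. MSXH 1, not among these 7, was at 6.418.

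**Figure D4:**
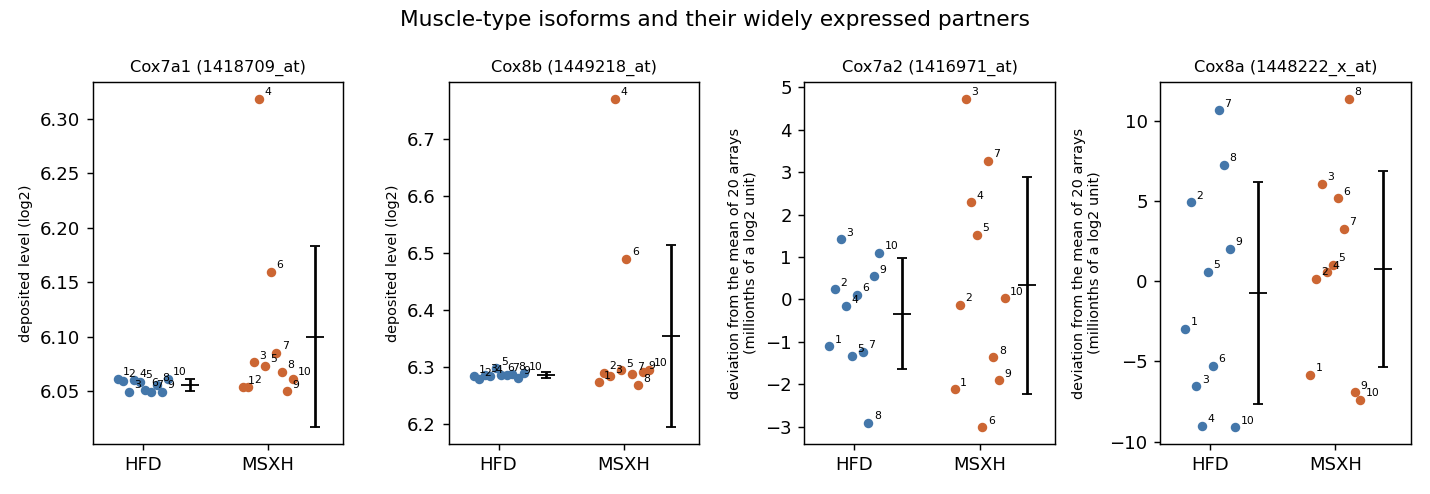
Levels of Cox7a1 and Cox8b (log2, left panels) and deviations of their widely expressed partners Cox7a2 and Cox8a (millionths of a log2 unit, right panels) in each mouse, with the mean and SD of each group of 10 as bars. MSXH 4 and MSXH 6 stand above all others in the left panels; in the right panels neither is the highest, and MSXH 6 is the lowest in Cox7a2.

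The widely expressed partners of these isoforms lay at much the same place in both groups. Cox7a2 gave 0.299 and 0.327, Cox8a 0.347, 0.199 and 0.228, and Cox7a2l, a relative that helps join complexes III and IV, 0.122, 0.292 and 0.198. For Cox7a2 1416971_at the deviations were -2.90, -0.0260 and 1.41 millionths in HFD and -3.01, -0.0510 and 4.72 in MSXH, with MSXH 6 the lowest and MSXH 3 the highest.

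Of the isoforms typical of other tissues, all but Cox6b2 had the lower mean in MSXH. Cox7b2, a testis form, gave -0.977 (-1.90 to -0.0330) with an adjusted p by limma of 0.441, at a mean level of 5.62 below every array median. Ndufa4l2, known to be induced by hypoxia, ran from -6.73 to 7.37 millionths in HFD and from -10.9 to 9.01 in MSXH, and gave -0.963 (-1.88 to -0.0207) with an adjusted p of 0.462. Its partner Ndufa4, named for complex I and now known as a subunit of complex IV, gave 0.151. Cox8c, a testis form, gave -0.553 and -0.508, and Cox4i2, the lung form, -0.198, while Cox6b2, another testis form, gave 0.237. Cox4i1, the common partner of Cox4i2, gave 0.679 (-0.233 to 1.57) over a range of less than 1 millionth, and Cox6b1, that of Cox6b2, 0.634 and -0.179.

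Probe sets of one gene often disagreed. Of the 34 genes with several member probe sets, 15 had standardized differences of both signs, 15 had all above 0 and 3 all below it; the remaining gene is Cox6a1, with 1 probe set at 0. Across all 60 genes, 34 were higher in every probe set and 10 lower in every one. The widest gap was in Cox5a (2.93), then Ndufs8 (2.18), Ndufs4 (1.98) and Uqcrq (1.65). Still, 2 probe sets of a member gene followed each other over the 20 arrays more closely than those of other genes. With group means taken off, the median correlation was 0.549 over 111 pairs against 0.208 over 30372 pairs of the whole array, given as a description.

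**Figure D5:**
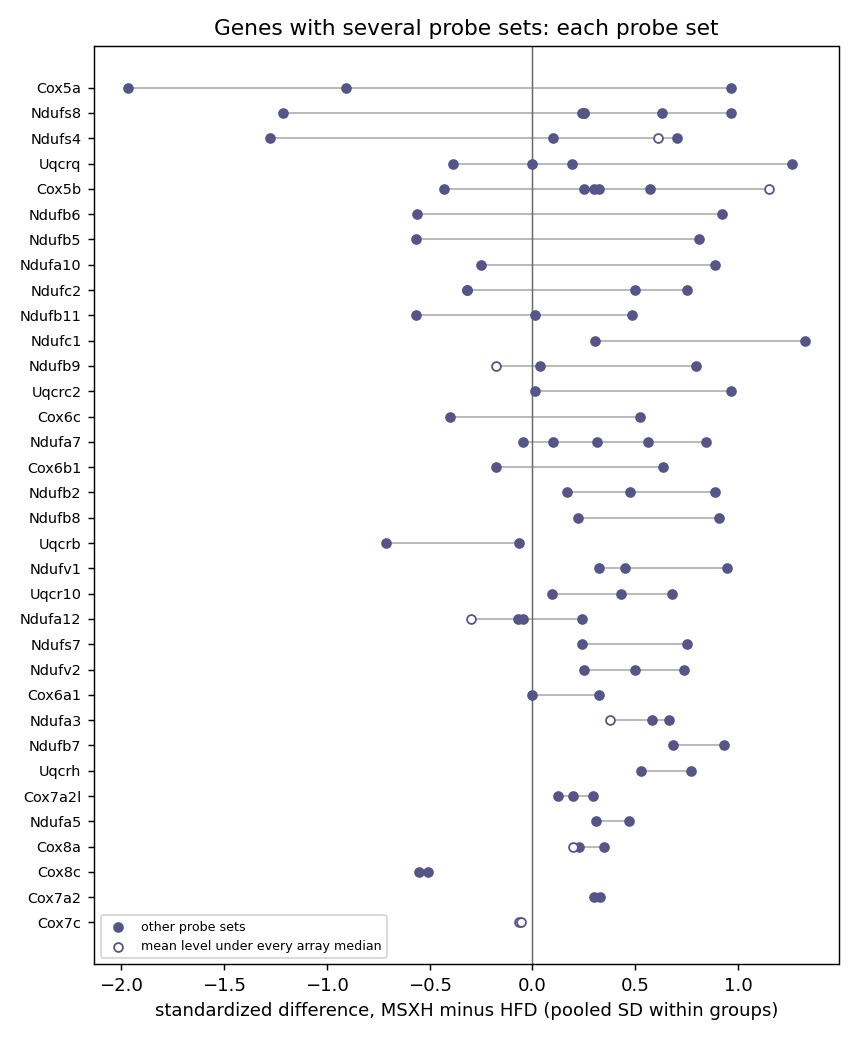
Standardized difference (MSXH minus HFD, in pooled SDs) of every probe set of the 34 genes with several, joined by a line for each gene and sorted by the width of the line. Open circles are probe sets whose mean level is below every array median; 15 lines cross 0, and the widest is Cox5a, from -1.97 to 0.967.

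The 87 members not named by rule had standardized differences from -0.568 to 0.945, of which 64 were above 0, 22 below it and 1 at 0, and their smallest unadjusted p was 0.0508. Of the 123 members, 12 had a mean level below every array median, and these were 7 higher and 5 lower. No member had groups without overlap, as against 5 (0.0143%) of all probe sets.

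The rest of the pathway gave no call either; over all probe sets tested, 53% were higher in MSXH, and 6.03% were higher and 4.69% lower at an unadjusted p under 0.05. Complex II, which feeds electrons from succinate, had 9 probe sets, 8 of them higher in MSXH (88.9%), with 0 at an unadjusted p under 0.05 and Sdha, its flavoprotein, at 0.907 (-0.0287 to 1.82). ATP synthase had 34, of which 26 were higher (76.5%), and 5 had an unadjusted p under 0.05, all higher (14.7%), led by Atp5e, its epsilon subunit, at 1.37 (adjusted p by limma 0.325). Assembly factors of the 3 complexes had 64, of which 44 were higher (68.8%), and 5 passed at that p, all higher (7.81%), led by Ndufaf5, a complex I assembly factor, at 1.66 (0.617 to 2.67) with an adjusted p by limma of 0.215.

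The electron carriers and enzymes of ubiquinone synthesis had 36 probe sets, of which 20 were higher (55.6%), and 7 were higher (19.4%) and 2 lower (5.56%) at an unadjusted p under 0.05, led by Pdss2, which makes the ubiquinone tail, at 1.58. The regulators of these genes had 35, of which 17 were higher (48.6%) and 18 lower, and 1 was higher (2.86%) and 2 lower (5.71%) at that p, led by Esrra, a nuclear receptor that drives respiratory genes, at 1.23. The 1 measured subunit encoded in mitochondrial DNA, ND5, gave 0.145 at a mean level of 13.4. None of these 179 probe sets passed after adjustment by limma.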

How the data were processed

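Each of the 20 mice, 10 per group by the sample titles, has 1 array. The authors deposited 1 value per probe set and array, read here as log2 from its range; values were tested unchanged. Not given in the sources used here were the base of the log and the steps from scan to value. A step that made arrays so alike can shrink differences between mice. The number of arrays limits the precision.

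Of 45101 probe sets, 64 controls, 932 with several symbols in the platform annotation and 9211 without an entry were left out. All 123 members were found by gene ID in the RefSeq table, with 0 symbols changed.

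The test was limma 3.58.1 (R 4.3.3; lmFit, then eBayes with a variance trend; 18 residual and 0.748 prior df), two-sided, with Benjamini-Hochberg adjustment over 34945 probe sets at 0.05. Intervals at 95% are from the noncentral t distribution. Tested on simulated data of 34945 probe sets, 50 per shift, it recovered 2% when the shift was 1 SD, 16% for 1.5 SD, 30% for 2 SD and 92% for 3 SD, and called 2 unchanged ones.

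Members, lists and rules were chosen with earlier results of these data known. The rule named, in each complex, the 5 probe sets of smallest p and the 2 of largest SD, then tissue-restricted isoforms with their partners, further probe sets of a named gene, and the probe set of smallest p in each pathway list. Cox5a 1439267_x_at, the core subunits and the genes with NRF1 letters were picked after their values were seen.

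Alternatives were quantile normalization, centring, a level filter, a replicate block, 1 value per gene (highest or mean), all probe sets, other eBayes settings, array weights, a rank sum test, and leaving out each array or MSXH 4 with MSXH 6. A test without empirical Bayes and one of members above every array median were added after seeing the data. Of 12 marker lists (hepatocyte, skeletal and heart muscle, white and brown adipocyte, macrophage, lymphocyte, neutrophil, endothelium, stellate cell, cholangiocyte, red cell), 0 had a gene called by limma, and 10 of their genes had an unadjusted p under 0.05. Figures used Python 3.11.15 and matplotlib 3.10.9.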

Additional observations from a re-analysis of the deposited data

Results flagged for a closer look

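Of 78 groups of 10 arrays looked at for a single array far from the others by Dixon's test, 3 held one, where chance gives about 1 in 20. In Cox7a1 (1418709_at) the gap of MSXH 4, the highest MSXH mouse, to the next was 0.591 of the range of that group. In Cox8b (1449218_at) the gap of MSXH 4 to the next was 0.559 of the range. Both next arrays were MSXH 6, and the skeletal muscle markers were highest on the same arrays, at 7.56 and 7.15. In Cox8c (1443789_x_at) the gap of HFD 6, the lowest HFD mouse at -79.5 millionths, was 0.477 of the range.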

How the results depend on the processing

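No alternative gave a called member, and leaving out each array gave 0 to 0. As deposited, 6 members were higher and 4 lower at an unadjusted p under 0.05. The higher count became 0 after quantile normalization and 0 with centring, 2 with 1 probe set per gene, 1 with the mean per gene, and, without MSXH 4 and MSXH 6, 1 with quantile normalization and 1 with centring. The lower count became 0 with centring, 2 with 1 probe set per gene, 2 with the mean per gene, 2 without MSXH 4 and MSXH 6, and 2 without them and with centring. Over all probe sets tested, the higher count fell as well, from 2108 to 22 after quantile normalization and to 40 with centring. Without MSXH 4 and MSXH 6 it fell with centring, but not with quantile normalization. The lower count over all probe sets tested fell with centring, and without MSXH 4 and MSXH 6, centred or not. Per-gene settings test 60 genes in place of 123 probe sets.

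The medians of the standardized differences (all members, complex I, III and IV) turned to -0.4472, -0.4472, -0.4472 and -0.4716 after quantile normalization, to -0.7016, -0.7014, -0.6931 and -0.7027 with centring, and to -0.5642, -0.5543, -0.4821 and -0.5833 with centring without MSXH 4 and MSXH 6. Over all probe sets tested the median was -0.5898, -0.6984 and -0.5392 in these settings, in that order. Without MSXH 4 and MSXH 6 and with quantile normalization, complex IV turned to -0.09682. In that setting the other medians were 0.03189 (all members), 0.0008321 (complex I) and 0.2377 (complex III), against 0.02924 for all probe sets. The cause was not tested. Of the 36 named probe sets, 23 turned sign with centring. Centring takes the same amount off every probe set of an array, and the array medians spanned more than the SD of 121 members. These turns therefore cannot set the members apart from other probe sets. The smallest adjusted p of a named probe set over all alternatives was 0.1815, in the test without an empirical Bayes step.

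Leaving out each array gave 4 to 13 higher and 2 to 4 lower members, and medians of 0.1729 to 0.361 (all), 0.1898 to 0.407 (I), 0.1128 to 0.412 (III) and 0.1023 to 0.3493 (IV). The higher count was 11 without MSXH 9 and 13 without MSXH 10, and the lower one 2 without HFD 7, HFD 10 or MSXH 4. Over all probe sets tested, the higher count also rose above 2108, its value with all arrays, without MSXH 9 or MSXH 10. The lower one also fell below 1638, its value with all arrays, without HFD 7, HFD 10 or MSXH 4. Complex I fell to 0.1898 without HFD 3. Complex III was 0.3401, 0.2971, 0.1269 and 0.412 without HFD 4, 5, 6 and 8, and 0.1128, 0.3691 and 0.3443 without MSXH 4, 5 and 10. Complex IV was 0.147 without HFD 3, and 0.1023, 0.1512 and 0.1052 without MSXH 3, 6 and 7.

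Mice that share a replicate number did not pair: the correlation of their deviations ran from -0.229 to 0.117, and 1 of 10 HFD mice correlated best with its own number. With the replicate number as a block, 0 members were called, 7 were higher and 3 lower at an unadjusted p under 0.05, and the medians were 0.204, 0.2182, 0.1161 and 0.1506. With 10 mice per group, shifts of 2 SD or less were mostly missed in the simulated data, with 30% recovered at 2 SD and 92% at 3 SD. The 12 members below every array median are the least certain to carry signal.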
